A study of Mus musculus with 33 samples.

Results

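The genes described here are 7 genes of arginine and nitric oxide metabolism, chosen by name and followed in 3 immune cell populations of mouse pancreatic tumours. They are 7 of the 53735 gene names in each table, and all 7 were found in all 9 tables. Of these, 4 form the nitric oxide arm: Nos2, Ass1, Slc7a2 and Gch1. The other 3 form the arginase arm: Arg1, Arg2 and Odc1. The question put to the data was how the arms moved in inflammatory monocytes (IM) and in tumour-associated macrophages (TAM) when the tumour was irradiated, given interleukin 12 (IL-12) or both.

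Arginine is a substrate that both arms draw on. Nos2, the inducible nitric oxide synthase, makes nitric oxide and citrulline from it. Slc7a2, the transporter CAT2, brings cationic amino acids into the cell, Ass1 (argininosuccinate synthase) starts the return of citrulline to arginine, and Gch1 (GTP cyclohydrolase) starts the synthesis of tetrahydrobiopterin, the cofactor of nitric oxide synthases. Arg1, the cytosolic arginase, and Arg2, the mitochondrial arginase, split arginine into ornithine and urea, and Odc1 (ornithine decarboxylase) takes ornithine into polyamines. In macrophages, Nos2 is a classical interferon gamma and toll-like receptor target, and Arg1 a classical interleukin 4 and interleukin 13 target. Myeloid cells of tumours are known to express both.

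KCKO pancreatic ductal adenocarcinoma cells were placed orthotopically in the pancreatic tail of C57BL/6 mice. Each population had 4 groups. The unirradiated group had neither treatment; stereotactic body radiotherapy (SBRT) was 4 fractions of 6 Gy on days 6 to 9; IL-12 was 0.5 µg in 2 mg of microspheres injected into the tumour on day 10; and the combination was SBRT followed by IL-12. All mice carried titanium markers beside the tumour. Empty microspheres served as a control, but the labels do not say which groups received them, nor give the age of the mice or the day of harvest. Cells were sorted as CD45+CD11b+Ly6C+Ly6G- (IM), as F4/80+ cells within CD45+CD11b+Ly6G- that were moderate for Ly6C (TAM), and as CD45+CD8+ (CD8 T cells). Of the 33 libraries, 12 were IM and 12 CD8, 3 in every group. The other 9 were TAM, 3 after IL-12 and only 2 for each remaining group. The labels do not say that libraries came from separate mice, so the p-values cover the spread among libraries, which may be technical.

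The genes lie, in GRCm38 with the GENCODE M21 annotation, on chromosome 11 at 78920787 to 78960254 (Nos2), chromosome 2 at 31470207 to 31520672 (Ass1), chromosome 8 at 40862396 to 40922308 (Slc7a2) and chromosome 14 at 47153895 to 47189413 (Gch1). Arg1 lies on chromosome 10 at 24915221 to 24927484. Arg2 and Odc1 are both on chromosome 12, at 79130777 to 79156301 and at 17544794 to 17551505. Slc7a2 shares 635 exon bases with the lincRNA Gm26584 on the opposite strand. Arg2 shares 401 exon bases with Vti1b and the antisense gene Gm48780, also on the opposite strand. The library kit does not mark strand, so reads in these shared bases cannot be assigned to 1 gene. The values of Slc7a2 and Arg2 are uncertain to that extent.

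Promoter sequences from RefSeq (GRCm38.p6) matched 3 of the 7 genes, and those of Ass1 and Gch1 are shown because these genes of the same arm differed in IM: Ass1 rose and Gch1 was not called. The Ass1 stretch is chr2:31470020-31470206 on the plus strand, up to the annotated gene start, and the Gch1 stretch is chr14:47189414-47189663 on the minus strand. Capitals mark motif matches.
Ass1: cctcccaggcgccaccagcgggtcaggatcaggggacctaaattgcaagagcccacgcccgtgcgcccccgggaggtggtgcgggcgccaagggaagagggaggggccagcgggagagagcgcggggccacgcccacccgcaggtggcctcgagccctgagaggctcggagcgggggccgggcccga
Gch1: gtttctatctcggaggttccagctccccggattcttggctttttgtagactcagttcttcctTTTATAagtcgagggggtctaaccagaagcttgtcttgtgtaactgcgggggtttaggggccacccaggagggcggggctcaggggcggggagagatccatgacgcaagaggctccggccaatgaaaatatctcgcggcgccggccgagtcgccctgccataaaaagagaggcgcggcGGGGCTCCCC
The motifs searched on both strands of the 250 bases before each RefSeq start were TTCNNNGAA (the interferon gamma activated site), the interferon stimulated response element (GAAA, any 2 bases, GAAA), the kappa B motif and TATAAA. They occur in 7.02%, 2.98%, 7.25% and 12.4% of 32851 promoters of the same length. Gch1 held 3 matches. A kappa B match read on both strands lay at -10 to -1 from the start, and TATAAA lay on the opposite strand at -188 to -183. Ass1 held 0 matches in its 250 bases, of which 75.6% were G or C, against 59.2% in Gch1. These are descriptions of letters in these windows and say nothing of binding.

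The values come from the authors' deposited tables, in which every treatment of a population is set against its own unirradiated libraries. A gene has there a mean level (counts divided by size factors, averaged over a population's libraries), a log2 fold change, and the adjusted p of DESeq2's Wald test. A gene was called higher or lower at an adjusted p below 0.05, and ± after a fold change is the standard error implied by the fold change and its test statistic. Fold changes appear to have been shrunken toward 0, since they are small for their statistics at low levels. True differences can therefore be larger than printed. Group levels below are implied by the mean level and the 3 fold changes of a population. No value per library accompanies the tables, so overlap between single libraries cannot be seen. The 3 comparisons of a population share their unirradiated libraries. The labels were checked against markers: IM had a mean level of 49540 for Ly6c2 and 28.4 for Ly6g, TAM had 34819 for Adgre1 (F4/80), and CD8 cells had 44253 for Cd8a. The check has limits, since Adgre1 also stood at 16461 in IM. Among other neutrophil markers in IM, S100a8 stood at 2916, Retnlg at 2709 and Ngp at 2414. Mpo and Cxcr2 stood at 64.0 and 22.5 there. In TAM, S100a8, Retnlg and Ngp stood at 273, 70.9 and 13.1.

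Nos2 was the member that moved most. In IM its implied level was 4887 in the unirradiated group, 8767 after SBRT, 13951 after IL-12 and 21914 after the combination. All 3 treated groups stood above the control, in that order. In the authors' deposited tables Nos2 rose by 0.84 ± 0.19 after SBRT (DESeq2 adjusted p = 0.0043), by 1.51 ± 0.19 after IL-12 (adjusted p = 3.4e-12) and by 2.16 ± 0.20 after the combination (adjusted p = 3.3e-25). The last is a 4.48-fold rise. By fold change Nos2 ranked 13 of all genes after SBRT, 2 after IL-12 and 1 after the combination in IM. It ranked 223, 100 and 28 in TAM, and 1664, 83 and 3216 in CD8 cells. The ranks use fold changes that appear shrunken, and so held nearer to 0 for genes of low level, which favours abundant genes.

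The steps between the treated IM groups were smaller relative to their error. Here and below, differences between treatments and interactions were computed from the Wald test statistics, put on 1 common standard error per gene. They can therefore differ from subtraction of the printed fold changes. The combination stood 1.27 ± 0.27 above SBRT alone, a difference that passed a normal test with Benjamini-Hochberg adjustment over all genes (adjusted p = 0.0033). Nos2 was 1 of 7 members to pass there, where 0.204% of all genes did. Against IL-12 alone the combination stood 0.61 ± 0.27 higher, which did not pass the same normal test (unadjusted p = 0.024, adjusted p = 1.0). IL-12 stood 0.65 ± 0.27 above SBRT, which did not pass either (unadjusted p = 0.017, adjusted p = 1.0). The interaction, here the combination effect less both single effects added up on that common scale, was -0.25 ± 0.33 (normal test, unadjusted p = 0.46). Taken directly from the fold changes, the combination stood 1.32 above SBRT and 0.65 above IL-12. IL-12 stood 0.67 above SBRT in that way, and the interaction was -0.19. Of the 7 members, 0 passed against IL-12 (0% of all genes did), 0 for IL-12 minus SBRT (0.0244%) and 0 for the interaction (0.00305%), and 1 each did at an unadjusted p below 0.05.

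In TAM, Nos2 started at an implied level of 9179 and stood at 14257 after SBRT, 14838 after IL-12 and 22678 after the combination. The single treatments lay close together, and the combination was highest. In the authors' deposited tables only the combination was called among these 3, with a rise of 1.30 ± 0.23, or 2.47-fold (DESeq2 adjusted p = 4.9e-06). The change was 0.64 ± 0.23 after SBRT (adjusted p = 0.14) and 0.69 ± 0.21 after IL-12 (adjusted p = 0.076). Computed from the test statistics as in IM, the combination stood 0.65 ± 0.32 above SBRT, which did not pass the normal test (unadjusted p = 0.044, adjusted p = 1.0). Against IL-12 it stood 0.53 ± 0.32 higher, which did not pass that normal test either (unadjusted p = 0.10, adjusted p = 1.0). The IL-12 effect had the smallest standard error of the 3, so this 0.53 is less than the printed 1.30 and 0.69 give by subtraction. On the same common scale the interaction for Nos2 in TAM was -0.11 ± 0.39 (normal test, unadjusted p = 0.78). In TAM, 0 of 7 members passed for the combination minus SBRT (0.00309% of all genes did) and 0 for the interaction (0.0124%), and 1 each did at an unadjusted p below 0.05.

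Ass1, which recycles citrulline, had an implied level in IM of 2413 in the unirradiated group, 3095 after SBRT, 4200 after IL-12 and 3506 after the combination. IL-12 alone gave the highest level. In the authors' deposited tables Ass1 rose by 0.80 ± 0.17 after IL-12 (DESeq2 adjusted p = 0.00036) and by 0.54 ± 0.17 after the combination (adjusted p = 0.031). After SBRT the change was 0.36 ± 0.17 (adjusted p = 0.64). The combination therefore lay below the sum of both single effects, by -0.62 ± 0.30, but this interaction did not pass the normal test (unadjusted p = 0.038, adjusted p = 1.0). In TAM the Ass1 changes were 0.50 ± 0.23 after SBRT, 0.04 ± 0.15 after IL-12 and 0.41 ± 0.23 after the combination in the authors' deposited tables, and none was called (DESeq2 adjusted p from 0.37 to 1.0).

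Slc7a2, the arginine transporter, stood at 1341 in unirradiated IM, 1918 after SBRT, 1667 after IL-12 and 2145 after the combination. In the authors' deposited table it rose after the combination, by 0.68 ± 0.22 (DESeq2 adjusted p = 0.031). The IM changes of 0.52 ± 0.21 after SBRT and 0.31 ± 0.21 after IL-12 were not called in the authors' deposited tables (DESeq2 adjusted p = 0.47 and 0.65). In TAM the order was different. The implied level was 3207 in the unirradiated group, 2631 after SBRT, 2147 after IL-12 and 3018 after the combination, so the control was highest. The authors' deposited tables gave TAM changes of -0.29 ± 0.22, -0.58 ± 0.21 and -0.09 ± 0.22, none of them called (DESeq2 adjusted p = 0.82, 0.25 and 0.96). The calls of Ass1 and Slc7a2 after the combination in IM lay near the threshold. Both were lost (adjusted p = 0.054 and 0.055) when the authors' p-values were adjusted by Benjamini-Hochberg over all genes with a p.

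Gch1, the first enzyme of cofactor synthesis, was not called in any IM or TAM table. Its implied level ran from 5299.8 (the combination) to 5779.9 (IL-12) in IM and from 3097 (IL-12) to 3807 (SBRT) in TAM. In the authors' deposited tables its changes in IM were -0.06 ± 0.16, 0.03 ± 0.16 and -0.09 ± 0.16 for SBRT, IL-12 and the combination. The 95% interval of the last ran from -0.40 to 0.21. For Nos2 the same interval ran from 1.78 to 2.55 and did not overlap that of Gch1. It overlapped that of no other member either. Their upper ends were 0.88 for Ass1, 1.10 for Slc7a2, 0.80 for Arg1, 0.44 for Arg2 and 0.44 for Odc1. The gap was therefore not particular to Gch1, since Nos2 had the largest rise of all genes in that table.

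Arg1 had the highest mean level of the 7 genes per kilobase of exon in both myeloid populations, at 15764 normalised counts per kb in IM and 25504 in TAM. In IM its implied level (not per kb) was 30011 in the unirradiated group, 38092 after SBRT, 30985 after IL-12 and 41399.8 after the combination. The 2 irradiated groups stood above the 2 others. None of these changes was called in the authors' deposited tables: 0.34 ± 0.17 after SBRT (DESeq2 adjusted p = 0.69), 0.05 ± 0.17 after IL-12 (adjusted p = 0.98) and 0.46 ± 0.17 after the combination (adjusted p = 0.088).

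In TAM the implied level of Arg1 was 57262 in the unirradiated group, 71658 after SBRT, 42715 after IL-12 and 62713 after the combination. IL-12 alone was lowest and SBRT alone highest, with the control between them. The authors' deposited tables gave changes of 0.32 ± 0.18, -0.42 ± 0.17 and 0.13 ± 0.17 for SBRT, IL-12 and the combination, none of them called (DESeq2 adjusted p = 0.56, 0.38 and 0.87). The difference of the single treatments, IL-12 minus SBRT, was -0.77 ± 0.25 and did not pass the normal test that leaves the shared controls in (unadjusted p = 0.0019, adjusted p = 0.82). It passed when the variance of the shared controls was removed (-0.73 ± 0.16, normal test, adjusted p = 0.0019). By the same pair of tests the combination stood 0.58 ± 0.25 above IL-12 (adjusted p = 1.0) or 0.54 ± 0.16 above it (adjusted p = 0.092). With shared controls left in, 0 of 7 members passed for IL-12 minus SBRT, where 0.0896% of all genes did, and 0 for the combination minus IL-12, where 0.0741% did, and 1 each did at an unadjusted p below 0.05. With their variance removed, 1 and 0 of 7 passed, where 0.602% and 0.642% of all genes did.

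Arg2 and Odc1 were not called in any IM or TAM table. Arg2 had an implied level from 1120 (SBRT) to 1339 (IL-12) in IM and from 427 (IL-12) to 575 (the combination) in TAM. Odc1 ran from 9477 (unirradiated) to 10434 (the combination) in IM and from 16523 (IL-12) to 18986 (SBRT) in TAM. Fold changes in the authors' deposited tables ran from -0.22 to 0.21 for Arg2 and from -0.11 to 0.14 for Odc1 over the 6 myeloid tables. The highest Wald statistic in size among these 12 values was -1.0, for Arg2 in IM after SBRT.

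**Figure D1:**
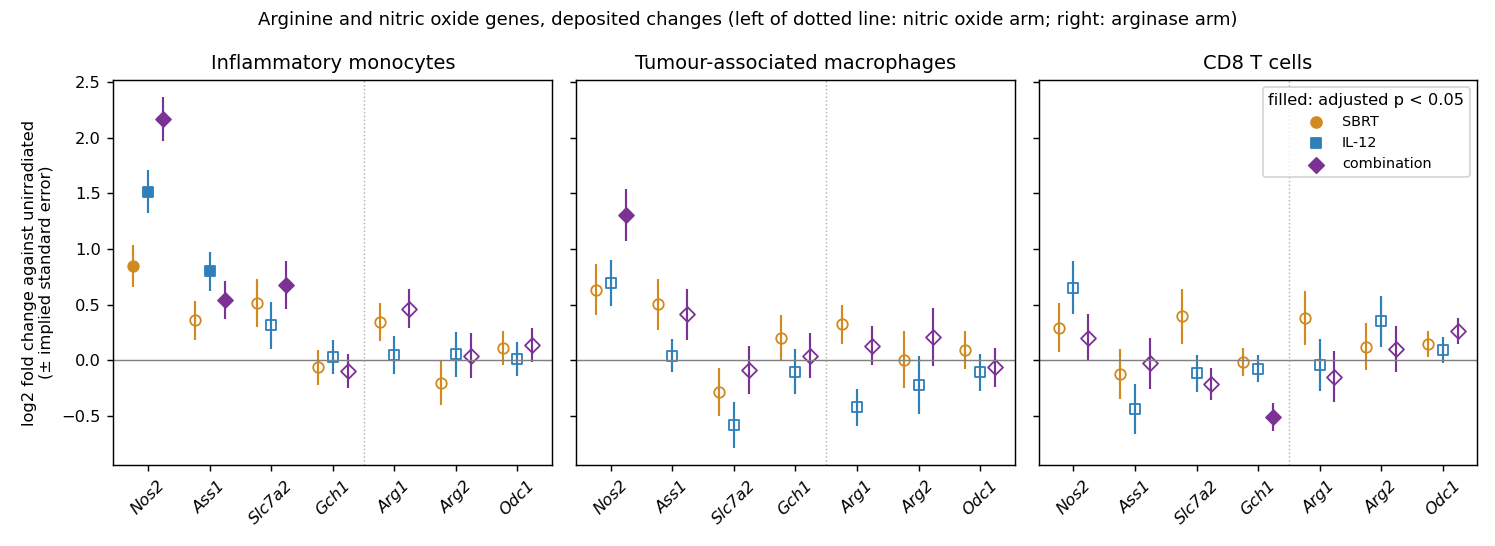
Log2 fold change of each gene against the unirradiated group (vertical axis) in the authors' deposited tables, for IM, TAM and CD8 T cells, with bars for the implied standard error, colours and shapes for the treatments and filled symbols for called genes. Nos2 in IM climbs from 0.84 to 2.16, while the arginase genes right of the dotted line hold no filled symbol.

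Counted by arm, IM had 1 of 4 nitric oxide genes called higher after SBRT, where 0.379% of all tested genes were, 2 of 4 after IL-12 (1.91% of all) and 3 of 4 after the combination (3.69% of all). The arginase arm had 0 of 3 called in each of these. In TAM, 0 of 4 and 0 of 3 were called after SBRT, against 2.08% of all genes in either direction, and 0 of 4 and 0 of 3 after IL-12, against 0.935%. After the combination 1 of 4 nitric oxide genes was higher, where 2.24% of all genes were, and 0 of 3 arginase genes was called. At an unadjusted p below 0.05 by the authors' DESeq2 test, 4, 2 and 4 of the 7 IM members passed after SBRT, IL-12 and the combination. In TAM 2, 3 and 1 of the 7 passed in the same order. By that DESeq2 test Arg1 passed in IM after SBRT (unadjusted p = 0.047) and after the combination (unadjusted p = 0.0074). It also passed in TAM after IL-12, where its change was negative (DESeq2 unadjusted p = 0.011). The median fold change of the 4 nitric oxide genes in IM was 0.44, 0.56 and 0.61 for SBRT, IL-12 and the combination, beside -0.02 over all tested genes in each table. The median of the 3 arginase genes was 0.11, 0.05 and 0.14. In TAM the medians of the nitric oxide arm were 0.35, -0.03 and 0.23 and those of the arginase arm 0.09, -0.22 and 0.13. Since the genes were chosen with earlier results of these data known, these counts and medians are descriptions.

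**Figure D2:**
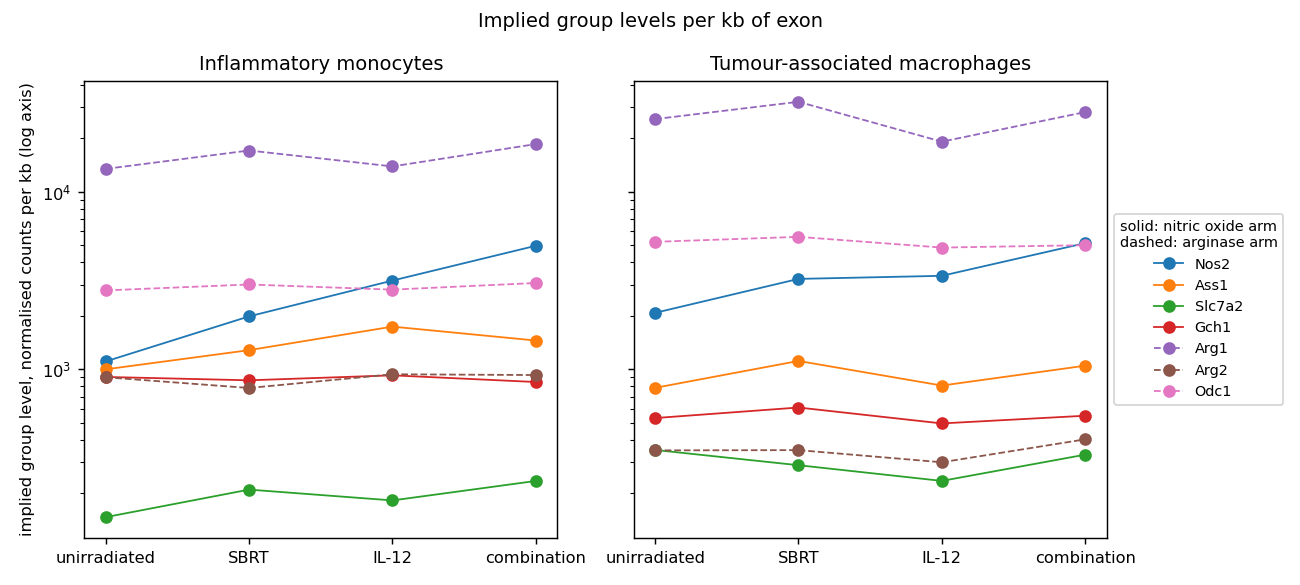
Implied level of each gene per kb of exon (vertical log axis, normalised counts per kb) in the 4 groups of IM and of TAM, with solid lines for the nitric oxide arm and dashed lines for the arginase arm. Arg1 is highest throughout, and Nos2 moves from 1108 to 4967 in IM and from 2080 to 5140 in TAM; lines join groups for reading only.

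Nos2 and Arg1 were then set against each other per kilobase of exon within each population. In unirradiated IM, Arg1 was 12.2 times the Nos2 level. This ratio was 8.60 after SBRT, 4.40 after IL-12 and 3.74 after the combination. In TAM the ratios were 12.4, 9.95, 5.70 and 5.48 in the same order. Arg1 was above Nos2 per kb in every group, and the ratio was lowest after the combination in both populations. On the log2 scale the Nos2 change exceeded the Arg1 change in IM by 0.50 ± 0.36 after SBRT, 1.47 ± 0.37 after IL-12 and 1.70 ± 0.37 after the combination. In TAM it exceeded it by 0.31 ± 0.40, 1.12 ± 0.37 and 1.17 ± 0.41. The error here is the sum of both implied standard errors, because the covariance of 2 genes in the same libraries is not known. It is the largest that these implied errors allow, but they rest on fold changes that appear shrunken, so the true error may be larger. No test was made. In TAM after IL-12 the ratio combined a Nos2 change of 0.69 with an Arg1 change of -0.42, whereas in IM the Arg1 change was 0.05.

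**Figure D3:**
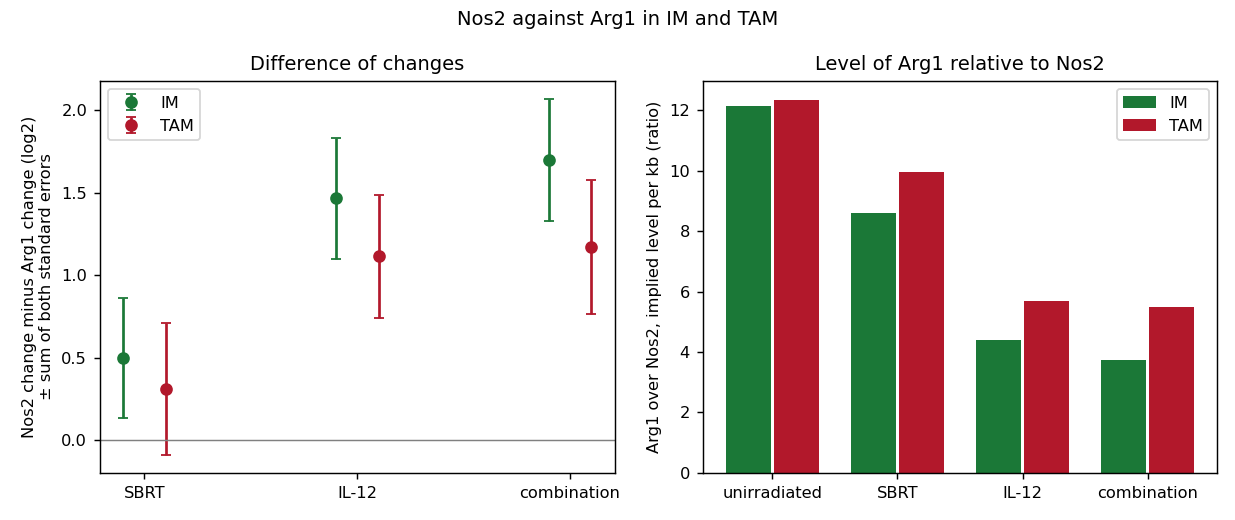
Left, the Nos2 change minus the Arg1 change (log2, with the sum of both standard errors as bars) for each treatment in IM and TAM. Right, the ratio of Arg1 to Nos2 implied levels per kb in the 4 groups, on an axis from 0, which goes from 12.2 to 3.74 in IM and from 12.4 to 5.48 in TAM.

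The same effect was compared between IM and TAM by the difference of their fold changes. None of the 7 genes passed the normal test with Benjamini-Hochberg adjustment over all genes after SBRT, IL-12 or the combination, where 0.272%, 0.0532% and 0.927% of all genes did. At an unadjusted p below 0.05 the count was 1, 3 and 2. Nos2 differed by 0.82 ± 0.28 after IL-12 (unadjusted p = 0.0038, normal test, adjusted p = 0.64) and by 0.86 ± 0.30 after the combination (unadjusted p = 0.0045, adjusted p = 0.21). Ass1 differed by 0.76 ± 0.23 after IL-12 (normal test, adjusted p = 0.33). The TAM part of that error was 0.15, against 0.23 for Ass1 in both other TAM tables. In the TAM table for IL-12 the fold change and the statistic disagreed in sign for 2795 genes, none of them a member, so implied standard errors there are less certain than elsewhere. For Slc7a2 the IM change exceeded the TAM change by 0.80 ± 0.31, 0.89 ± 0.30 and 0.77 ± 0.31 (normal test, adjusted p = 0.55, 0.54 and 0.36). Arg1 differed by 0.02 ± 0.25, 0.47 ± 0.24 and 0.33 ± 0.25. A larger response in IM than in TAM was thus not shown for any of the 7 genes with these libraries.

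Other genes of the pathway were taken from 8 lists of 76 genes, of which 73 had a mean level above 0 in IM and 72 in TAM. In IM, 1 of these was called higher and 0 lower after SBRT, 1 higher and 1 lower after IL-12, and 2 higher and 2 lower after the combination. Over all tested genes, 0.519%, 3.24% and 6.72% were called in either direction in these 3 tables. In TAM the counts were 0 and 0, 1 and 0, and 1 and 4, where 2.08%, 0.935% and 4.21% of all genes were called. Over the 6 myeloid tables together, 9.96% of 20080 tested genes were called in at least 1, the share against which the counts per list below are to be read. In lists this short, a count of 0 or 1 lies near that share and is not a result about the list. Median fold changes over the 76 ran from -0.04 to 0.00, and those over all tested genes from -0.02 to 0.00, in the 6 myeloid tables.

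Among 8 other arginine and cationic amino acid transporters, 1 was called: Slc7a6, a y+L system exchanger, fell by 0.67 ± 0.18 in IM after the combination in the authors' deposited table (DESeq2 adjusted p = 0.0051). Of the arginine synthesis genes Asl, Otc, Cps1 and Nags, 0 were called, and Otc and Cps1 were listed at 0 in IM and TAM. Of 11 genes of the other nitric oxide synthases and their signalling, 0 were called. The mean levels of the neuronal and endothelial synthases Nos1 and Nos3 were 1.96 and 19.3 in IM and 1.24 and 9.97 in TAM. The mean level of Nos2 was 12379.8 in IM and 15194 in TAM, and none of these is per length.

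Of 15 polyamine genes, downstream of Odc1, 0 were called in any IM or TAM table, with medians from -0.08 to 0.07. Amd1 and Amd2, members of that list, are near-identical copies whose reads can be split between them.

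The ornithine, proline and creatine list held 3 called genes of 9. Gatm, which uses arginine to start creatine synthesis, rose in IM by 0.79 ± 0.18 after SBRT (DESeq2 adjusted p = 0.0056) and by 0.63 ± 0.18 after the combination (adjusted p = 0.011) in the authors' deposited tables. After IL-12 the Gatm change in IM was 0.30 ± 0.18 (adjusted p = 0.55), and in TAM, where its mean level was 21816 against 8146 in IM, the 3 changes ran from 0.02 to 0.09 in the authors' deposited tables. Pycrl, a pyrroline-5-carboxylate reductase, fell by 0.69 ± 0.18 in TAM after the combination in the authors' deposited table (DESeq2 adjusted p = 0.0055). Prodh, proline dehydrogenase, fell by 0.84 ± 0.25 there (DESeq2 adjusted p = 0.026 in the authors' deposited table).

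**Figure D4:**
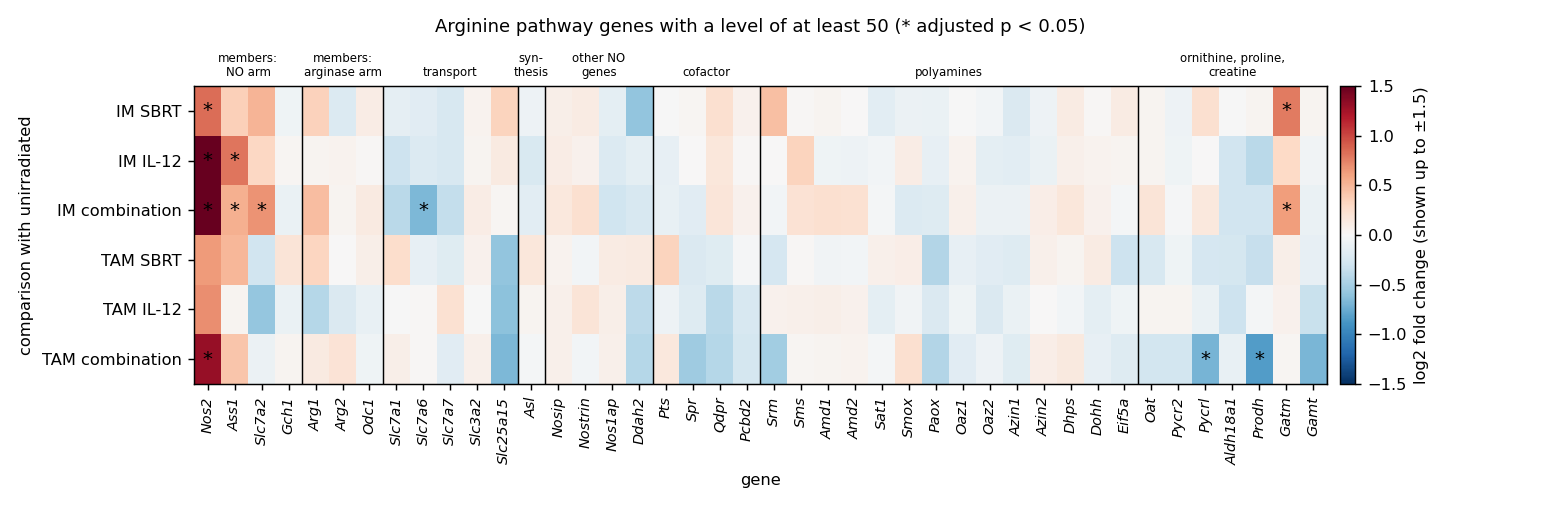
Log2 fold change (colour, shown up to ±1.5) of 42 members and pathway genes with a mean level of at least 50 in the 6 IM and TAM comparisons of the authors' deposited tables, with a star for called genes, grouped by role. The 12 stars of 252 cells include 6 for Nos2, Ass1 and Slc7a2 in IM and 1 for Nos2 in TAM, and the other 5 stand at Slc7a6, Gatm, Pycrl and Prodh.

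Genes known to drive or mediate Nos2 and Arg1 induction were also followed. Ifngr1, the ligand-binding chain of the interferon gamma receptor, fell in IM by 0.69 ± 0.13 after IL-12 and by 0.71 ± 0.13 after the combination (DESeq2 adjusted p = 3.2e-05 and 7.7e-06 in the authors' deposited tables). Irf8, an interferon regulatory factor, rose by 0.53 ± 0.15 in TAM after the combination (DESeq2 adjusted p = 0.014 in the authors' deposited table). Pparg, a nuclear receptor among the genes known to drive Arg1, fell by 0.84 ± 0.25 in TAM after the combination (DESeq2 adjusted p = 0.024 in the authors' deposited table). These genes are named because they were called, and their calls are not a result about the drivers of Nos2 or Arg1 as a set.

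Likeness of pattern was measured as the root mean square distance over the 6 myeloid log2 fold changes, among 1478 genes called in at least 1 table with a mean level of at least 50 in both populations. The tables of a population share controls, so this is a description. Nearest to Nos2 were Gbp2b (0.23), a guanylate-binding protein, Il12rb1 (0.25), which encodes the receptor's beta 1 chain for IL-12, Ly6a (0.26), Sectm1a (0.26) and Inpp5j (0.27), which overlaps Pla2g3. In the authors' deposited tables Gbp2b changed by 0.86, 1.33 and 1.87 in IM and by 0.69, 1.07 and 1.09 in TAM for SBRT, IL-12 and the combination. The standard errors of Nos2, 0.19 to 0.23, were about the size of its distances, so the order of its nearest genes is uncertain. Nearest to Arg1 were Slc36a3os (0.17), which overlaps Slc36a3, Cpped1 (0.18), which overlaps Gm9961, Amdhd2 (0.18), Bcl2l1 (0.19), which encodes the survival protein Bcl-xL, and Adprm (0.19). Arg1 itself was not called in any of the 6 tables, and its standard errors of 0.17 to 0.18 were about the size of these distances. The genes near it may thus share no more than small changes.

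Some markers moved with these results. In IM the gate marker gene Ly6c2 rose by 1.16 after IL-12 and by 1.10 after the combination in the authors' deposited tables, where Nos2 also rose. Of the 10 macrophage markers, 1 rose and 1 fell in IM after IL-12, and 3 rose and 1 fell after the combination. Mrc1 fell by 1.0 and 0.99 in the authors' deposited tables, C1qb rose by 0.53 and 0.71, and C1qa and C1qc rose by 0.60 and 0.74 after the combination. Of the 8 monocyte markers, 2 rose and 4 fell in IM after each of these treatments, and F13a1 fell most after IL-12 (by 0.84) and Vcan after the combination (by 1.23). The summed level of the 10 macrophage markers ran from 371914 to 386870 over the IM groups, that of the 8 monocyte markers from 247040 to 266340 and that of the 12 neutrophil markers from 23309 to 25350. Within that neutrophil sum, Mmp8 fell in IM by 0.95 after IL-12 and by 1.04 after the combination. Both falls were called in the authors' deposited tables (DESeq2 adjusted p = 0.0011 and 8.5e-05). The summed level of 6 natural killer markers ran from 2726 (unirradiated) to 6709 (the combination) and followed Klrk1, which rose by 1.62 after the combination in the authors' deposited table. The other 5 markers changed by -0.57 to 0.02 in IM. In TAM the monocyte marker Plac8 rose after all 3 treatments in the authors' deposited tables, by 0.98, 1.40 and 1.34, and F13a1 fell, by 0.64, 0.62 and 0.98. In all, 2 monocyte markers rose and 1 fell there after each treatment. The summed monocyte level ran from 56321 (SBRT) to 65777 (IL-12), and the TAM neutrophil level from 7148 (unirradiated) to 9178 (the combination). Most of this neutrophil sum was 1 gene, Csf3r, with a mean level of 7772 out of 8449 in TAM. S100a8, Ngp and Ly6g stood at 273, 13.1 and 8.70 there. The 9 mitochondrially encoded transcripts, a sign of RNA quality, summed to 519012 in unirradiated IM and to 425767 to 438308 in the treated groups. In TAM they summed to 690584 in the unirradiated group, 573068 after SBRT, 554642.5 after IL-12 and 642870 after the combination. The part of these in the changes of Nos2, Ass1, Slc7a2 and Arg1 was not tested. In sorted bulk RNA, fewer cells of a type and less RNA per cell cannot be told apart.

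In CD8 T cells, which served as the comparison, Nos2, Arg1, Slc7a2 and Arg2 had mean levels of 190, 702, 40.0 and 27.4. The 10 macrophage markers summed to 11369 there, with 0 of 10 at 0. Relative to the macrophage receptor gene Csf1r, Nos2 stood at 30.7% in CD8 cells, 19.9% in IM and 24.3% in TAM, and Arg1 at 113%, 56.5% and 90.9%. The same ratio was 723% in CD8 cells and 8.91% in IM for Gch1, and 2059% and 16.0% for Odc1. For Ass1 it was 86.4%, 5.31% and 3.57% in CD8 cells, IM and TAM, for Slc7a2 6.44%, 2.84% and 4.29%, and for Arg2 4.41%, 2.04% and 0.788%. Relative to Adgre1 the order differed: Nos2 stood at 62.2%, 75.2% and 43.6%. Over the CD8 groups, Arg1 had implied levels of 876 after SBRT, 672 unirradiated, 653 after IL-12 and 607 after the combination. The macrophage markers summed to 14164, 12222, 10686 and 8406 in that order, and their part in the Arg1 levels was not tested.

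The 1 member called in CD8 cells was Gch1. Its implied level was 4921 in the unirradiated group, 4882 after SBRT, 4674 after IL-12 and 3455 after the combination, so the combination stood apart from the other groups. It fell by 0.51 ± 0.12 after the combination in the authors' deposited table (DESeq2 adjusted p = 0.0015). That was 1 lower of the 6 members with an adjusted p there, where 2.96% of all tested genes were. The call was lost under an empirical null, in which the statistics are rescaled by their own median and spread (adjusted p = 0.071, normal test). Of the members with an adjusted p, 0 of 7 were called after SBRT alone and 0 of 5 after IL-12 alone. Of all tested genes 0.471% and 2.52% were called there in either direction. At an unadjusted p below 0.05 by the authors' DESeq2 test, 0 and 2 of all 7 members passed. Against SBRT the Gch1 level after the combination differed by -0.50 ± 0.17 and against IL-12 by -0.44 ± 0.17, and neither passed the normal test with shared controls left in (adjusted p = 0.73 and 1.0). There 0 of 7 members passed in each, where 0.0755% and 0.00302% of all genes did, and 2 and 1 had an unadjusted p below 0.05. With the control variance removed, Gch1 passed against SBRT (adjusted p = 0.0092, normal test), as 1.39% of all genes did. Nos2 changed by 0.65 ± 0.24 in CD8 cells after IL-12, which was not called (DESeq2 adjusted p = 0.12 in the authors' deposited table), and by 0.29 ± 0.22 and 0.20 ± 0.21 after SBRT and the combination.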

How the data were processed

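RNA of 3 sorted populations was sequenced in 33 libraries of 12 groups, and the values came from 9 tables of the authors, 1 per treated group against its unirradiated group. Per the submitters' processing notes, the build was GRCm38 and the tools included STAR 2.6.0c, Salmon, Subread with featureCounts, Trimmomatic 0.36 and FastQC 0.11.8, with no role given. Per the labels' protocols, the kit was TruSeq V2, which does not mark strand. The deposited tables hold, per the file headers, DESeq2's mean signal over libraries after normalisation, a log2 fold change, a Wald statistic and p-values. The authors' log2 fold change appears shrunken, the authors' Wald statistic is used as a score, and the authors' adjusted p-value leaves out genes of low level. The DESeq2 version, design formula and shrinkage method are not given in the sources used here. With no values per library in the tables, sequencing depth is unknown for every library, and intervals that need a depth are left out.

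Calls used the deposited adjusted p at 0.05. Standard errors are fold change over statistic. Differences between treatments and the interaction were computed from the statistics, put on 1 common standard error per gene and population. They were tested with a 2-sided normal test, adjusted by Benjamini-Hochberg across every gene that had a p. The covariance through shared controls was left out, which widens the standard error of each difference. The code was tested on simulated data. Exon lengths came from GENCODE M21. Work was done in Python 3.11.15 with pandas 2.3.3, numpy 2.4.6, scipy 1.17.1 and matplotlib 3.10.9. The members and lists were chosen with earlier results of these data known. Named genes are all 7 members, up to 4 called genes per list, smallest adjusted p first, and the 5 nearest in pattern to Nos2 and to Arg1, leaving out predicted genes. Results on a few listed genes are not reported here. Alternatives were other adjustments, thresholds, level filters, recentring, an empirical null (statistics rescaled by their own median and spread) and removal of the control variance.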

Additional observations from a re-analysis of the deposited data

How the results depend on the processing

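Of 90 counts of members recomputed under an alternative, 83 stayed within 1.5 times the main count or at the same count, and 7 moved. Of 579 values of single genes, 569 kept their direction and call, 7 lost a call, 3 gained one and 0 reversed. After the combination in IM, 1 member in place of 3 was called when p-values were adjusted over all genes with a p, under the empirical null, and at a threshold of 0.01, and this 1 was Nos2. Under the empirical null, Ass1 and Slc7a2 had an adjusted p of 0.25 and 0.25. In TAM after IL-12, 1 member in place of 0 was called under the empirical null (Nos2, adjusted p = 0.032, normal test). In CD8 cells after the combination, 0 in place of 1 was called under it (Gch1, adjusted p = 0.071, normal test). With the control variance removed, 1 member in place of 0 differed for TAM IL-12 minus SBRT (Arg1) and 1 in place of 0 for CD8 combination minus SBRT (Gch1, adjusted p = 0.0092, normal test). The spread of the statistics, over genes with a level of at least 10, was 1.30 for the combination in IM and 1.29 in CD8 cells. It was 0.938 for IL-12 in TAM, where fold change and statistic also disagreed in sign for 2795 genes. Rescaling by a spread above 1 makes statistics smaller, and by one below 1 larger. Why the spreads differ was not tested.

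No paired analysis was possible because the tables hold no values per library, and leaving out a library or a fit with a replicate block was not run for that reason. Depth is unknown, and 3 of the TAM groups rest on 2 libraries each.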

Other observations

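In the TAM table for IL-12, the fold change and the Wald statistic had opposite signs for 2795 genes, 190 of them with a mean level of at least 50. Among these 190 the statistic reached 4.96 in size. In the other 8 tables between 0 and 6 genes at that level had opposite signs. Of the 7 members, 0 had opposite signs in any table.

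Slc25a15, the mitochondrial ornithine carrier, had changes of -0.59 ± 0.22, -0.62 ± 0.21 and -0.67 ± 0.22 in TAM for SBRT, IL-12 and the combination in the authors' deposited tables. None was called (DESeq2 adjusted p = 0.18, 0.16 and 0.059). In IM its changes were 0.34, 0.14 and 0.03. This gene was picked out after its values were seen.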
